A study of Saccharomyces cerevisiae with 12 samples.

Results

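The genes described here make ergosterol, the main sterol of the budding yeast Saccharomyces cerevisiae, or keep its amount in balance. They are 33 listed genes: 8 of the mevalonate steps, 4 from farnesyl pyrophosphate to lanosterol, 12 of the late steps to ergosterol, 2 electron donors, 5 of sterol ester metabolism and 2 regulators. Each was represented by a probe set that names only that gene, and by the brightest one where there were several. All 33 were found among 5859 features that name genes, and 31 lay above a filter on dim features that left 4687 for the tests. ARE2 and UPC2 were too dim to be tested and are given as values.

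Total RNA was measured on 12 Affymetrix arrays in 4 groups of 3. One group carried a temperature-sensitive (ts) allele of RAP1 and another a ts allele of ABF1, and each had a wild-type group of its own. Rap1 and Abf1 are essential proteins that bind many yeast promoters, and both mutant proteins lose DNA binding at 37 C. Every group, wild types included, was grown at 25 C and moved to 37 C for 1 h before RNA was taken, so no comparison shows the effect of heat itself. The labels name YPD, a rich medium, for all groups but the abf1 wild type, and they name neither the strains nor the alleles. Arrays are numbered 1 to 3 within a group, but nothing says that they came from separate cultures; p-values therefore rest on the spread among these arrays, and that spread may be technical. These were whole cultures scaled to a common signal, so fewer cells with an RNA and less of it per cell cannot be told apart.

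Ergosterol synthesis starts from acetyl-CoA. The mevalonate steps build isoprene units, squalene synthase joins farnesyl chains into squalene, and squalene is oxidised and folded into lanosterol. The late enzymes then remove methyl groups, shift double bonds and reduce the side chain. Several of these steps use molecular oxygen, and some of their enzymes carry heme, so yeast needs both to make sterol. The zinc-cluster factors Upc2 and Ecm22 bind sterol regulatory elements of ERG genes, and Upc2 raises many of these genes when sterol runs low. Surplus sterol is stored as esters made by Are1 and Are2.

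In the rap1 ts mutant 9 of the 31 tested genes fell and 0 rose when arrays of the same number were treated as pairs. They were ERG13 and MVD1 of the mevalonate steps, the squalene epoxidase gene ERG1, the late genes ERG11, ERG25, ERG3, ERG5 and ERG4, and the esterifying enzyme gene ARE1. Their signal was 1.7-fold to 3.57-fold lower. Without the pairing, in the fit planned as the test, 0 of 31 passed. In the abf1 ts mutant 0 of 31 passed in either fit. The genes that fell lay in 4 of the steps, and each of those steps also held genes that did not pass.

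The test was limma on log2(signal + 13) with Benjamini-Hochberg adjustment over all 4687 features, with 0.05 as the limit for a call. Without pairing it called 17 features lower in rap1 ts (0.363% of all) and 2 higher (0.0427%). With the replicate number of each series as a block, 470 features were lower (10%) and 701 higher (15.0%), so the 9 members, 29.0% of those tested, compare with 10% of all features. The split of all features depended on the scaling: with the block, quantile normalization gave 614 lower and 597 higher, and median centring gave 594 and 558. At an unadjusted p under 0.05 without the block, 6 members (19.4%) were lower against 9.34% of all features, and 0 were higher against 12.9%. Those 6 were ERG13, ERG1, ERG25, ERG3, ERG4 and ARE1. The count of calls depended on the pairs. With the block and without array 1 of every group 3 members were called (ERG13, ERG25 and ARE1), without array 2 there were 8, and without array 3 there were 2 (ERG25 and ERG5). Of all features 4.03%, 10.7% and 2.28% were called lower in these 3 settings.

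Signal along control transcripts moved with the same comparison. The ratio of 3' to 5' signal of ACT1, the actin gene, was 18.2, 6.58 and 2.56 on the rap1 wild-type arrays and 48.4, 20.1 and 28.0 on the rap1 ts arrays, with no overlap (2-sided exact permutation p = 0.1, the smallest that 3 against 3 arrays allow). For SPT15 the ratio reached 56.9 on rap1 ts array 1 and 8.91 and 7.87 on the others, against at most 7.08 in the wild type. For SRB4 the rap1 groups overlapped, at 151, 24.9 and 26.6 in the wild type and 238, 85.9 and 580 in the mutant (exact permutation p = 0.2). In the abf1 series array 1 of the mutant stood apart for ACT1 and SPT15. The ACT1 ratios were 32.7, 3.47 and 4.41 on abf1 ts arrays 1 to 3 and the SPT15 ratios 16.2, 4.51 and 3.68. The geometric means for ACT1 in the abf1 series were 12 in the wild type and 7.93 in abf1 ts (exact permutation p = 0.6). For SRB4 the abf1 groups overlapped, at 79.7, 99.7 and 701 in the wild type and 337, 121 and 45.4 in the mutant (exact permutation p = 0.7). The highest SRB4 ratio there was thus on wild-type array 3. The part of these ratios in the results below was not tested.

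**Figure D1:**
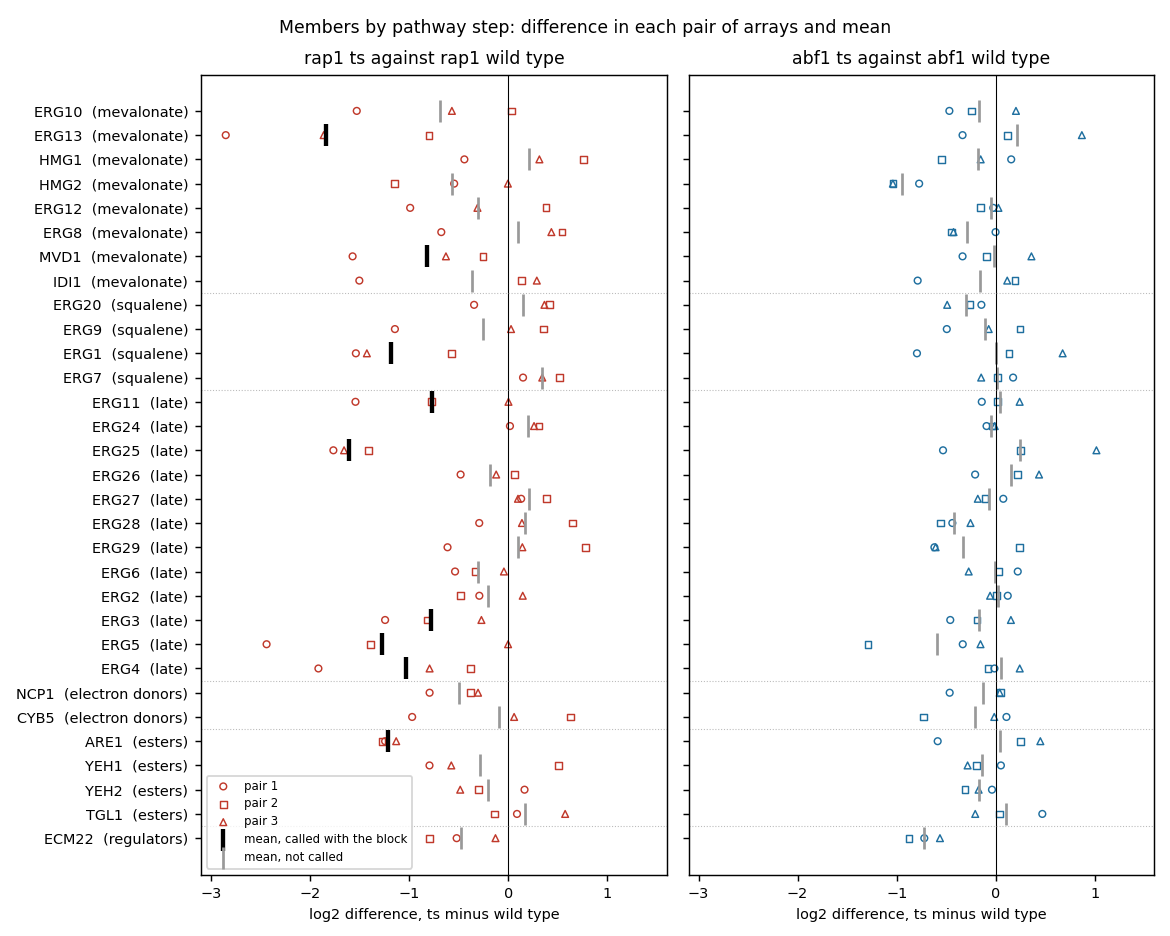
Log2 difference of signal, ts minus wild type, for the 31 tested genes in pathway order (vertical axis), in rap1 (left, red) and abf1 (right, blue). Circles, squares and triangles are pairs 1, 2 and 3, and bars are means, black where limma with the replicate block called the gene; the 9 black bars are all in the rap1 panel and lie from -1.84 to -0.77.

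The mevalonate steps held the tested gene with the largest change. ERG13, which encodes HMG-CoA synthase, read 1782, 2729 and 4684 on rap1 wild-type arrays 1 to 3 and 236, 1561 and 1279 on the rap1 ts arrays. Every mutant array was below every wild-type array. The mean went from 3065 ± 1479.8 (SD, n = 3) to 1025 ± 698, a log2 fold change of -1.84 (SE 0.57 and limma adjusted p = 0.118 without the block, SE 0.35 and adjusted p = 0.00891 with it). MVD1, the mevalonate pyrophosphate decarboxylase gene, read 2238, 2911 and 4311 in the wild type and 745, 2439 and 2785 in the mutant. These ranges overlapped, but each pair was lower in the mutant, and the log2 fold change was -0.82 (limma adjusted p = 0.293, and 0.0427 with the block). With a block shared by all 12 arrays MVD1 was not called (adjusted p = 0.105).

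The other 6 mevalonate genes did not pass. ERG10, the acetoacetyl-CoA thiolase gene that starts the pathway, read 4483, 5832 and 8037 in the wild type and 1546, 5966 and 5418 in the mutant (log2 fold change -0.69, limma adjusted p = 0.352, with the block 0.0821). Its low value came from array 1, and pair 2 was level at 0.03. IDI1, the isopentenyl diphosphate isomerase gene, was also low on array 1 of the mutant, at 989.6 against 2823 and 4638 on the others, and its pairs differed by -1.50, 0.13 and 0.29 (log2 fold change -0.36, adjusted p = 0.679, with the block 0.439). ERG12 and ERG8, the genes of the successive mevalonate kinases, had log2 fold changes of -0.31 and 0.10. ERG12 was the one member with several probe sets, 4 in all, and the 3 dimmer ones differed by -1.03 to -0.29 against -0.31 for the one used.

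HMG1 and HMG2 encode paralogous HMG-CoA reductases, the main control point of the mevalonate steps. HMG1 read 4770, 4392 and 6957 in the rap1 wild type and 3507, 7463 and 8658 in rap1 ts, with overlapping groups and a log2 fold change of 0.21 (SE 0.38, limma adjusted p = 0.763, with the block 0.522). HMG2 read 4351, 8446 and 2109 in the wild type and 2978, 3806 and 2104 in the mutant, with pair 3 level and a log2 fold change of -0.57 (adjusted p = 0.606, with the block 0.0839). Neither reductase gene passed, and the 3 HMG2 signals of the wild type spread by more than the groups differed.

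Between farnesyl pyrophosphate and lanosterol, ERG1 alone of 4 genes passed. It encodes squalene epoxidase, the first oxygen-using step. Its signal was 2982, 4397 and 5515 in the rap1 wild type and 1019, 2954 and 2044 in rap1 ts, without overlap. The log2 fold change was -1.18 (SE 0.39 and limma adjusted p = 0.128 without the block, SE 0.28 and adjusted p = 0.0174 with it). ERG7, the lanosterol synthase gene that follows ERG1, was higher in all 3 pairs, by 0.15, 0.52 and 0.34 on the log2 scale, and did not pass (log2 fold change 0.34, adjusted p = 0.443, with the block 0.147). The medians of all features in these pairs were -0.09, 0.28 and 0.13. ERG20 and ERG9, the farnesyl pyrophosphate and squalene synthase genes, had log2 fold changes of 0.15 and -0.25.

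Of the 12 late genes, 5 fell with the block. ERG25 encodes the sterol methyl oxidase that starts the removal of the last methyl groups from the sterol ring. It read 4084, 8577 and 9474 in the rap1 wild type and 1193, 3222 and 2997 in rap1 ts, so the groups did not overlap. Its mean went from 7378 ± 2888 to 2471 ± 1112 (SD, n = 3), a log2 fold change of -1.61 (SE 0.42 and limma adjusted p = 0.104 without the block, SE 0.25 and adjusted p = 0.00605 with it). The 3 pairs were alike, at -1.76, -1.41 and -1.66, and ERG25 was called in 7 of 7 settings that used a block.

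ERG4, which encodes the last reductase of the pathway, read 5636, 5296 and 6366 in the wild type and 1485, 4057 and 3667 in the mutant, without overlap (log2 fold change -1.03, limma adjusted p = 0.134, with the block 0.02). ERG3, a sterol desaturase gene, read 6899, 10988 and 8227 against 2909, 6258 and 6823, also without overlap (log2 fold change -0.77, adjusted p = 0.216, with the block 0.0255). For both, the mutant array farthest from the wild type was array 1.

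The pathway's cytochrome P450 genes, ERG11 and ERG5, fell with the block, and for both the difference came from pairs 1 and 2. ERG5, a further desaturase, read 1388, 1896 and 2233 in the wild type and 246, 718 and 2233 in the mutant (log2 fold change -1.28, limma adjusted p = 0.253, with the block 0.0412). ERG11, the lanosterol demethylase that azole drugs inhibit, read 8530.1, 11361 and 10543 in the wild type and 2923, 6653 and 10566 in the mutant (log2 fold change -0.77, adjusted p = 0.237, with the block 0.0482). On array 3 both genes were at the wild-type level. With the block shared by all 12 arrays ERG5, ERG11 and ERG3 were not called (adjusted p = 0.105, 0.134 and 0.141).

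The remaining 7 late genes did not pass. ERG6, the sterol methyltransferase gene, read 9047, 9077 and 9066 in the wild type and 6237, 7197 and 8798 in the mutant; all mutant arrays were lower, with a log2 fold change of -0.30 (limma adjusted p = 0.355, with the block 0.205). ERG24 and ERG27, both reductase genes, were higher in all 3 pairs, with log2 fold changes of 0.20 and 0.21, against a median of 0.09 for all features. ERG2, the sterol isomerase gene, ERG26, a dehydrogenase gene, ERG28, which encodes a scaffold for the demethylating enzymes, and ERG29 lay between -0.21 and 0.17.

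**Figure D2:**
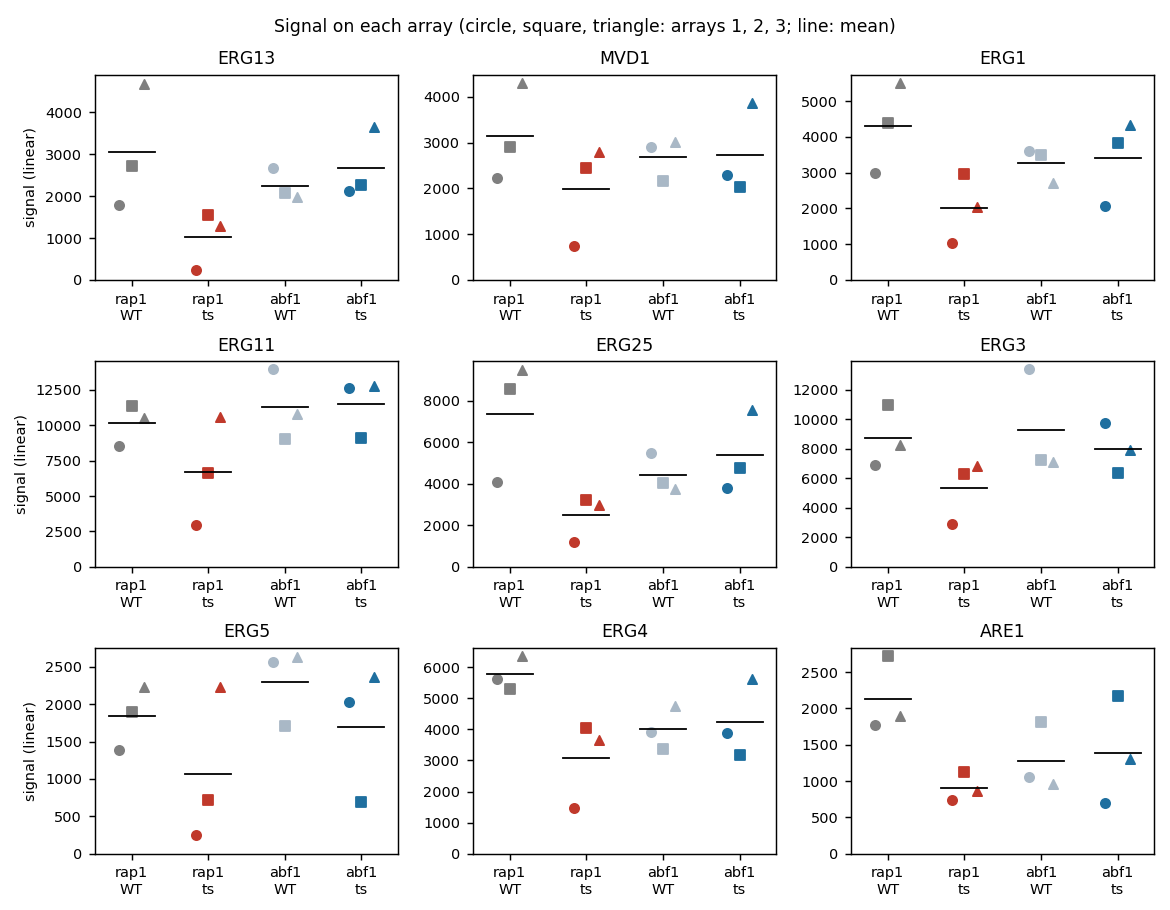
Linear signal on each array for the 9 genes that fell in rap1 ts with the replicate block, in the 4 groups (WT, wild type); circles, squares and triangles are arrays 1, 2 and 3 and lines are group means. The rap1 ts arrays of ERG13, ERG1, ERG25, ERG3, ERG4 and ARE1 all lie below the rap1 wild-type arrays, while ERG5, ERG11 and MVD1 overlap.

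Grouped by chemistry, a grouping chosen after the values were seen and so not tested, the oxygen-using enzymes all had lower means. ERG1, ERG11, ERG25, ERG3 and ERG5 had log2 fold changes from -1.61 to -0.77 in rap1 ts with a median of -1.18, and all 5 were among the 9 called. With the block over all 12 arrays 2 of them were called (ERG1 and ERG25), and with the block but without array 1, 2 or 3 of every group 1, 3 and 2. Of all features 7.96% were called lower with the block over all 12 arrays, and 4.03%, 10.7% and 2.28% without array 1, 2 or 3. In pair 3 ERG11 and ERG5 were level with the wild type. The other 26 tested members had a median of -0.23, with 17 below 0 and 4 called. In abf1 ts the medians were 0.00 and -0.12. The electron donors of these enzymes did not pass in rap1 ts. NCP1, the P450 reductase gene, read 4424, 4994 and 4998 in the wild type and 2548, 3836 and 4045 in the mutant, without overlap (log2 fold change -0.49, limma adjusted p = 0.285, with the block 0.0736). CYB5, the cytochrome b5 gene, had a log2 fold change of -0.09.

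Among the sterol ester genes, ARE1 fell. It encodes a sterol acyltransferase of the endoplasmic reticulum and read 1766, 2726 and 1890 in the rap1 wild type and 739, 1120 and 856 in rap1 ts. The highest mutant array was below the lowest wild-type array. The mean went from 2127 ± 522 to 905 ± 195 (SD, n = 3), a log2 fold change of -1.22 (SE 0.39 and limma adjusted p = 0.126 without the block, SE 0.23 and adjusted p = 0.00891 with it), and the pairs were close at -1.24, -1.27 and -1.13. Its paralog ARE2 was dim, at 146, 87.2 and 299 in the wild type and 36.6, 96.6 and 80.9 in the mutant, with overlapping groups. In a fit without the filter ARE2 had a log2 fold change of -1.10 (adjusted p = 0.259, with the block 0.0622), which the offset of 13 understates most for such dim values.

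The steryl ester hydrolase genes did not pass in rap1 ts. YEH1 read 2628, 893 and 2899 in the wild type and 1510, 1275 and 1943 in the mutant (log2 fold change -0.29), and YEH2 read 364, 371 and 787 against 409, 299 and 559 (log2 fold change -0.21). TGL1 had a log2 fold change of 0.17. Of the 5 ester genes 4 were tested and 1, the synthetic enzyme gene ARE1, was called.

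Neither sterol regulator gene passed in rap1 ts. ECM22 read 1454, 1666 and 958 in the wild type and 1009.7, 957 and 876 in the mutant, so the groups overlapped (log2 fold change -0.48, SE 0.33, limma adjusted p = 0.395, with the block 0.115). UPC2 was dim, at 481, 167 and 149 in the wild type and 669, 197 and 284 in the mutant. In the fit without the filter its log2 fold change was 0.52 (SE 0.62, adjusted p = 0.653, with the block 0.177). Both factors are controlled by sterol at the protein level, which arrays do not measure.

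Over all members, 22 of 31 had a log2 fold change below 0 in rap1 ts (71.0%) against 44.1% of all features. The members' median was -0.30 and that of all features 0.09. The members were chosen with earlier results of these data known, so no test of the list was run. By step the medians were -0.46 for the mevalonate genes, -0.05 for the squalene genes, -0.26 for the late genes and -0.25 for the tested ester genes. Groups that did not overlap were also counted: 8 members (25.8%) lay wholly below their wild type against 10.5% of all features, and 0 wholly above against 16.1%. Besides the 6 genes lower at an unadjusted p under 0.05, these 8 included ERG6 and NCP1.

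**Figure D3:**
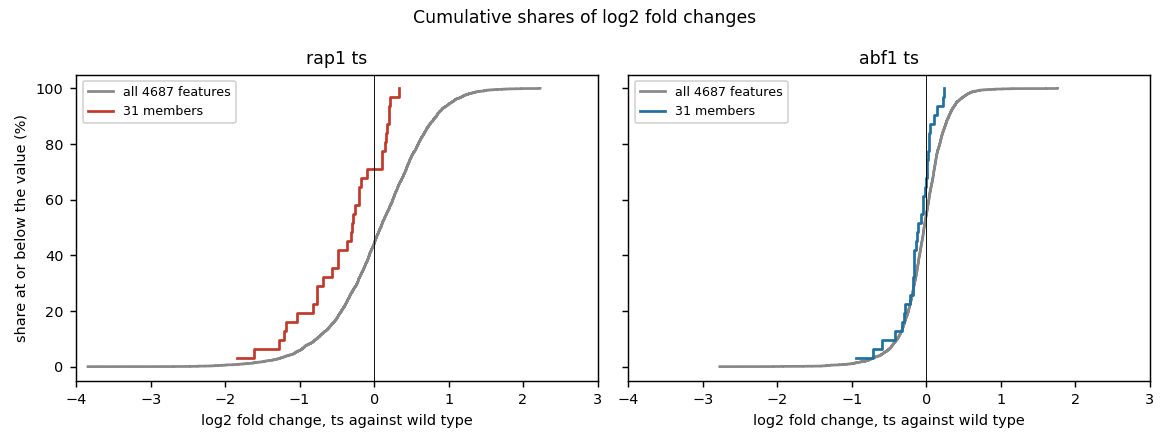
Share of genes (percent, vertical axis) at or below each log2 fold change (horizontal axis) for the 31 tested sterol genes (coloured steps) and all 4687 features (grey), in rap1 ts (left) and abf1 ts (right). The medians are -0.30 and 0.09 in rap1 ts and -0.11 and -0.03 in abf1 ts.

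The pairs differed in how many members were low. In pair 1 of the rap1 series 26 of 31 members were below 0, with a median of -0.79, and 12 were at least 2-fold lower. Pairs 2 and 3 had 16 and 17 members below 0, medians of -0.14 and 0.00, and 4 members each at least 2-fold lower. Of all features 55.1%, 36.7% and 40.3% were below 0 in pairs 1, 2 and 3. The medians of all features in the 3 pairs were -0.09, 0.28 and 0.13, and 15.4%, 5.46% and 6.17% of them were at least 2-fold lower. Pair 1 holds the mutant array with the highest ACT1 and SPT15 ratios. In all 3 pairs, 12 of 31 members (38.7%) were lower, against 997 of 4687 features (21.3%). The 12 include ERG5 and HMG2, which in pair 3 were lower by only -0.001 and -0.003 on the log2 scale.

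The abf1 mutant gave no call among the sterol genes. All features called without the block were 2 lower (0.0427%) and 0 higher (0%), and with it 10 lower (0.213%) and 0 higher (0%). At an unadjusted p under 0.05 there was 1 member lower (3.23%), ECM22, against 2.82% of all features, and 0 higher against 0.277%. The members' median was -0.11 and that of all features -0.03, with 21 of 31 members below 0 (67.7%) against 54.5% of features. The 9 genes that fell in rap1 ts had log2 fold changes from -0.59 (ERG5) to 0.24 (ERG25) here. ERG25, the highest of the 31, read 5494, 4012 and 3734 in the abf1 wild type and 3794, 4759 and 7559 in abf1 ts. Its pairs ran from -0.53 in pair 1, the pair of the mutant array with the high ACT1 and SPT15 ratios, to 1.02 in pair 3. ERG13 read 2685, 2086 and 1992 in the wild type and 2124, 2264 and 3648 in the mutant.

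The lowest member in abf1 ts was HMG2, at 1831, 7623 and 2047 in the wild type and 1066, 3706 and 989.7 in the mutant. The groups overlapped because array 2 was high in both, and within pairs the differences were alike, at -0.77, -1.04 and -1.04. The log2 fold change of -0.95 did not pass (SE 0.64, limma adjusted p = 1, with the block 0.156). ECM22 read 1003, 1966 and 1072 in the wild type and 603, 1064 and 721 in the mutant, lower in each pair by 0.72, 0.88 and 0.56 on the log2 scale and also short of the test (log2 fold change -0.72, SE 0.33, adjusted p = 1, with the block 0.26). UPC2 had a log2 fold change of -0.21 in the fit without the filter. ERG28 was the 1 member whose abf1 groups did not overlap, with 3507, 4336 and 3951 in the wild type and 2583, 2934 and 3308 in the mutant (log2 fold change -0.42, with the block adjusted p = 0.727). Non-overlap below the wild type was found for 3.23% of members and 5.33% of all features. Above the wild type it was found for 0 members and 2.28% of all features.

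The effects of the mutants were compared directly by an interaction contrast, the rap1 effect minus the abf1 effect. With the block, 3 members were lower in it: ERG13 (-2.05 on the log2 scale, SE 0.50, limma adjusted p = 0.0393), ERG25 (-1.85, SE 0.36, adjusted p = 0.026) and ARE1 (-1.25, SE 0.33, adjusted p = 0.0441). This share, 9.68% of those tested, compares with 2.88% of all features lower and 6.21% higher, with 0 members higher. Without the block 0 members and 0% of features passed in either direction. At an unadjusted p under 0.05, also without the block, 4 members (12.9%) were lower against 4.50% of features. None were higher, against 8.21% of features. The 4 lower members were ERG13, ERG25, ERG4 and ARE1. For the other 6 genes that fell in rap1 ts the effects were not shown to differ between the mutants; ERG1 and ERG4 came closest, at -1.18 and -1.08 (adjusted p = 0.0831 for both with the block). With the block shared by all 12 arrays ERG25 alone was called (adjusted p = 0.0475). With the block but without array 1 or array 3 of every group 0 members were called, and without array 2 the calls were ERG13, ERG25 and ERG4. Of all features 1.83% were called lower with the shared block, and 0%, 3.35% and 0.0213% without array 1, 2 or 3.

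The wild types of the series were also compared, since each mutant has its own. No member and 0% of features passed in either direction, without a block or with one shared by all arrays, and at an unadjusted p under 0.05 0 members were lower or higher against 2.94% and 0.384% of features. The rap1 wild type still stood higher for some genes that fell in rap1 ts. ARE1 had a mean of 2127 ± 522 there and 1275 ± 473 in the abf1 wild type (log2 difference 0.77, limma adjusted p = 0.965), and ERG25 had 7378 ± 2888 and 4413 ± 946 (0.67, adjusted p = 0.965). The rap1 ts means of ARE1 and ERG25, 905 ± 195 and 2471 ± 1112, were below both wild-type means. The rap1 ts arrays of ARE1, 739 to 1120, overlapped those of the abf1 wild type, 952 to 1818. For ERG25 they did not, at 1193 to 3222 against 3734 to 5494. ERG4 read 5296 to 6366 in the rap1 wild type and 3368.5 to 4762 in the abf1 wild type (0.53, limma adjusted p = 0.965). Its rap1 ts arrays, 1485 to 4057, overlapped the abf1 wild type. No test of rap1 ts against the abf1 wild type was run. For ERG1, ERG13 and MVD1 the log2 differences were 0.36, 0.34 and 0.19. For ERG3, ERG11 and ERG5 they were -0.05, -0.14 and -0.32. Over all features this contrast had a median of -0.11 as deposited, -0.03 after quantile normalization and 0.00 after median centring, against -0.06 for the members as deposited.

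The array number was also examined across both series. A term for the replicate number over all 12 arrays, added after the values were seen like the counts that follow, passed for 6 of 31 members (19.4%; HMG2, ERG12, ERG7, ARE1, YEH1 and YEH2) by limma's F test, a smaller share than the 26.1% of all features. In all 4 groups HMG2 and ARE1 were highest on array 2 (6.45% of members against 4.95% of features), and ERG7 and YEH1 were lowest there (6.45% against 13.4%). The values of the paralog pairs were as follows, and differences between paralogs were not tested. HMG2 was 1.29 higher on array 2 than on array 1 on the log2 scale (adjusted p = 0.00882), while HMG1 was lowest on array 2 in 3 of 4 groups (adjusted p = 0.375). YEH1 differed by -1.14 between arrays 2 and 1, and YEH2 by 0.99 between arrays 3 and 1 (adjusted p of the term 0.0104 and 0.011). The labels do not say what the numbers stand for.

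**Figure D4:**
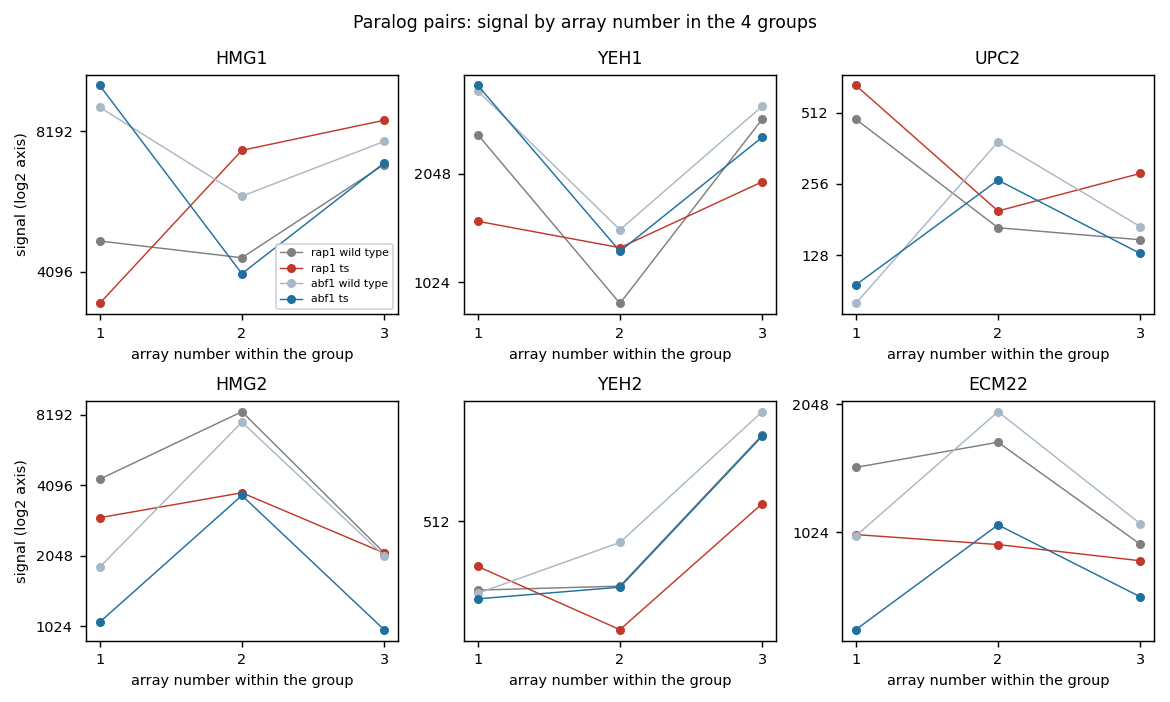
Signal (log2 axis) of 3 paralog pairs, HMG1 and HMG2, YEH1 and YEH2, UPC2 and ECM22, on arrays 1, 2 and 3 of each group (horizontal axis); a line follows 1 group and implies no order of the arrays. HMG2 peaks and YEH1 dips on array 2 in all 4 groups, while UPC2 does neither.

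Genes around the pathway were taken from 4 further lists. Of 11 tested genes of sterol uptake and transport, 2 fell and 1 rose in rap1 ts with the block (18.2% and 9.09%, against 10% and 15% of all features), and the median was -0.57. KES1, an oxysterol-binding protein gene, went from 704 ± 377 to 156 ± 78.3 (SD, n = 3), 4.01-fold lower (limma adjusted p = 0.115, with the block 0.01). PRY1, which encodes a secreted sterol-binding protein, had a log2 fold change of -1.25 with overlapping groups (with the block adjusted p = 0.0109). SAY1, the sterol deacetylase gene, had one of 0.87 (0.0323). KES1 was also lower in the interaction contrast with the block (-2.13, adjusted p = 0.0441). Its mean in the abf1 wild type was 296 ± 57.4, against 704 ± 377 in the rap1 wild type (log2 difference 1.045, limma adjusted p = 0.965). For PRY1 and SAY1 the difference between the wild types was 0.07 and -0.42.

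Of 9 tested genes of heme synthesis and its reductases, 2 fell with the block (22.2% against 10%): HEM15, the ferrochelatase gene (log2 fold change -1.71, limma adjusted p = 0.0131), and HEM1, the gene of the first heme enzyme (-0.93, adjusted p = 0.0356). The rap1 groups of HEM1 overlapped. Its means were 1723 in the rap1 wild type, 913 in rap1 ts and 926 in the abf1 wild type. For HEM15 these means were 1755, 653 and 1103. The wild types differed by 0.83 for HEM1 and 0.73 for HEM15 on the log2 scale (limma adjusted p = 0.965 for both). Neither gene passed in the interaction contrast with the block (limma adjusted p = 0.0944 for HEM1 and 0.0748 for HEM15). Of 11 tested further regulators and turnover factors 1 fell, NSG1, which encodes a stabiliser of Hmg2 (-0.57, with the block adjusted p = 0.0499), a share of 9.09% against 10% of all features. It was not called with the block over all 12 arrays (adjusted p = 0.0513). Of 7 tested genes of other isoprenoid branches (dolichol, ubiquinone, prenylation) 0 passed. Without the block 0 genes of these lists passed, and in abf1 ts 0 passed in either fit.

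The 9 genes that fell shared no position. No listed gene neighbours another on its chromosome in the R64 gene table. Of 14 tested genes next to the 9, 2 were called with the block, and both rose (14.3%, against 15% of all features): MNL2 beside ERG3 (log2 fold change 1.40, limma adjusted p = 0.00589) and BUD22 beside ERG5 (0.97, adjusted p = 0.0108). The median coding length of the 9 was 1476 bases (930 to 1833), and that of the other 22 tested members 1324.5 bases (363 to 3165).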

How the data were processed

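The authors deposited linear intensity values per probe set, made with MAS5 per the submitters' processing notes (version and settings not given in the sources used here). They had been scaled per array, with 2%-trimmed means of 1497.0 to 1499.7 and medians of 390.4 to 598.3, so differences are relative to the rest of each array. Of 9335 probe sets 60 were controls, 6504 named 1 gene, 328 several and 2443 none. Each gene took the probe set with the highest mean, and features under the 20th percentile of mean log2 value (8.16) were left out. The offset of 13 is the 10th percentile of the non-control values, and fold changes on log2(signal + 13) understate the change of dim genes.

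Group means of all 12 arrays were fitted with limma 3.58.1 in R 4.3.3 (eBayes with a trend, Benjamini-Hochberg over 4687 features). The fit was also run on simulated data with 200 changed features and with deviations shared by arrays of the same number. Changes of 1 on the log2 scale were recovered for 11% without the block and 34.5% with it, and changes of 2 for 84.5% and 94%. This simulation assumed the pairing, so it cannot show whether the pairing holds. The number of arrays limits the precision. Deviations from group means correlated between arrays of the same number by 0.25 to 0.824 within a series, above the minimum of 0.1 for each pair. On that basis the arrays were treated as pairs by number, which no label states. Correlations between arrays of unlike number are not given here. The fit without the block was the planned test, and results with this number as a block (within a series) stand beside it as an alternative. Alternatives were other offsets, filters, scalings, probe set rules and fits, and arrays left out.

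The members and lists were chosen with earlier results of these data known. Named with full values were members called in any contrast, UPC2 and ECM22, the paralog pairs, and the member of largest change in each step; of the further lists, up to 3 called genes each. Promoter motifs, planned for this work, were not analysed here.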

Additional observations from a re-analysis of the deposited data

Results flagged for a closer look

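For 3 genes the rap1 and abf1 effects differed in the interaction contrast with the replicate block. For ERG13 the difference was -2.05 on the log2 scale (limma adjusted p = 0.0393), from a rap1 effect of -1.84 and an abf1 effect of 0.22. For ERG25 it was -1.85 (adjusted p = 0.026), from -1.61 and 0.24. For ARE1 it was -1.25 (adjusted p = 0.0441), from -1.22 and 0.04. In each, the rap1 difference was below 0 in 3 of 3 pairs, while the abf1 difference was below 0 in pair 1 and above 0 in pairs 2 and 3. Pair 1 of the abf1 series holds the abf1 ts array with ACT1 and SPT15 3' to 5' ratios of 32.7 and 16.2, against at most 4.41 and 4.51 on the other abf1 ts arrays; the part of these ratios was not tested. The calls depended on single pairs: with the block but without array 1 or array 3 of every group 0 members were called, and without array 2 ARE1 was not. With the block over all arrays ERG25 alone was called. Without the block none of the 3 passed (adjusted p = 0.371, 0.332 and 0.388). Each effect was taken against its own wild type, and the rap1 wild type stood above the abf1 wild type for these genes. The log2 differences were 0.34 for ERG13, 0.67 for ERG25 and 0.77 for ARE1 (limma adjusted p = 0.97, 0.965 and 0.965).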

How the results depend on the processing

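Members called in rap1 ts numbered 0 without a block, and also 0 in every setting run without one. With the replicate block within each series there were 9, with a block over all arrays 5, without array 1, 2 or 3 of every group and with the block 3, 8 and 2, and with the block after quantile normalization 8 and after median centring 10; these last settings were chosen after seeing the data. All these members were lower. In the same order of settings with a block, the shares of all features called lower were 10%, 7.96%, 4.03%, 10.7%, 2.28%, 13.1% and 12.7%. ERG25 was called in 7 of 7 settings with a block and ERG13 and ARE1 in 6. In the interaction contrast the block gave 3, the block over all arrays 1, the block without array 1, 2 or 3 of every group 0, 3 and 0, and with the block quantile normalization 3 and median centring 5. The shares of all features called lower there were 2.88%, 1.83%, 0%, 3.35%, 0.0213%, 3.99% and 5.14%.

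All features called in rap1 ts numbered 19 without a block, 30 after quantile normalization, 31 after median centring and 3 on the 6 arrays of the series. The replicate block gave 1171, the block over all arrays 940, the block without array 1, 2 or 3 549, 837 and 172, and the block after quantile normalization 1211 and after median centring 1152. Leaving out single arrays gave 6 to 26. In abf1 ts the 2 calls became 0 after median centring and on 6 arrays, 10 with the replicate block of either kind, 0, 70 and 0 with the block without array 1, 2 or 3, 18 and 29 with the block after quantile normalization and median centring, and 0 to 10 without single arrays. In the interaction contrast the 0 calls became 4 and 1 after quantile normalization and median centring, 426 and 273 with the block within series and over all arrays, 0, 257 and 1 with the block without array 1, 2 or 3, 436 and 576 with the block after each scaling, and 0 to 3 without single arrays. Between the wild types the range without single arrays was 0 to 2.

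The members' median in rap1 ts stayed below 0 in every setting. Without rap1 ts array 1 it was -0.15 against -0.30, and the interaction median turned from -0.20 to 0.09. In abf1 ts the median ranged from -0.238 to 0.012 without single arrays, the latter without abf1 ts array 2. Sign changes of values called in neither setting were not counted as reversals, and no called value changed sign. The cause of these shifts was not tested.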
